A study of Homo sapiens with 12 samples.

Results

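The 58 genes described here encode nucleolar factors that make ribosomes in A375 cells, an established human skin melanoma line. Members were the rows of the deposited count table whose gene symbol equals 1 of 58 names, all 58 were present among 44659 rows, and each fell into 1 of 8 role groups. In the first experiment A375 cells received 500 nM vemurafenib plus 500 nM cobimetinib for 24 h (MAPKi), against cells given DMSO. In the second, cells spent 24 h in medium without glutamine (Gln-depleted) against cells kept at 2 mM glutamine (CTRL). Each group held 3 libraries, 12 in all, and every group grew in the same DMEM with serum. Both drugs act on the BRAF-MEK-ERK (MAPK) cascade, vemurafenib on mutant BRAF and cobimetinib on MEK. The sample labels describe the RNA as cytoplasmic and the study's methods as total, and libraries were depleted of rRNA.

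Ribosome biogenesis starts in the nucleolus, where RNA polymerase I transcribes a long precursor rRNA. Small nucleolar ribonucleoproteins (snoRNPs) of the box C/D and box H/ACA classes guide methylation and pseudouridylation of that precursor, while the small subunit processome cleaves and folds its 5′ part. Later factors then finish the small (40S) and large (60S) subunits separately. In many cells the genes of this pathway are expressed with growth signalling, and the transcription factor MYC, which binds the E-box letters CACGTG, is a known activator of a number of them.

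Library totals lay between 31056296 and 40071368 counts. MAPKi and DMSO libraries belonged to sequencing batch 2, and Gln-depleted and CTRL libraries to sequencing batch 1, so that experiment and sequencing batch cannot be told apart. Within the Gln experiment, replicate 1 came from experimental batch 1 and replicates 2 and 3 from experimental batch 2. MYC itself stood at 1643, 1752 and 1512 normalized counts in DMSO and at 91.4, 114 and 86.6 in MAPKi. With Gln depletion its log2 fold change was −0.96. Its part in any result below was not tested. The nuclear RNA RN7SK took 1.93 to 2.15% of counts in DMSO and 3.95 to 4.40% in MAPKi, while MALAT1 took 0.225 to 0.244% and 0.207 to 0.239%. In the Gln experiment RN7SK took 1.55 to 2.25% in CTRL and 1.99 to 3.79% in Gln-depleted libraries. MALAT1 took 0.0779% in CTRL replicate 1 against 0.273 and 0.214% in the other CTRL libraries and 0.0938 to 0.146% in Gln-depleted ones, and NEAT1 0.0156 to 0.0226% and 0.00634 to 0.00825%. The part of these nuclear RNAs in the results was not tested either.

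The start regions of the members were examined in RefSeq windows (GRCh38.p14) of 250 bases before to 50 after the transcription start, which matched 48 of the 58 members. CACGTG, a palindrome and therefore read on both strands at once, lay in 19 of the 48 windows (39.6%) against 8.95% of 15451 promoters. In 17 of those 19 it began within 40 bases of the start, which was the case for 35.4% of member windows and 2.71% of all. The 15451 promoters include those of protein-coding genes with few or no counts here, whereas every member was counted. Being expressed and being a member are thus not separated in these shares. The stretches shown next are members in which the motif sits just upstream of the start. Capitals mark CACGTG, the 100 bases run 5′ to 3′ on the gene's strand, and each ends at the base before the start.
UTP20, chr12:101280005-101280104, plus strand: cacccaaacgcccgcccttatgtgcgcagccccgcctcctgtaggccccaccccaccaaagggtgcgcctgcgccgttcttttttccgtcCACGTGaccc
NAT10, chr11:34105529-34105628, plus strand: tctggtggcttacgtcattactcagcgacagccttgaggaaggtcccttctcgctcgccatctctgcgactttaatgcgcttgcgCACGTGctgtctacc
UTP4, chr16:69132549-69132648, plus strand: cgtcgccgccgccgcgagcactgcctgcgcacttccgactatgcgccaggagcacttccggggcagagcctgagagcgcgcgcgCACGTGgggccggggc
NOP10, chr15:34343137-34343236, minus strand: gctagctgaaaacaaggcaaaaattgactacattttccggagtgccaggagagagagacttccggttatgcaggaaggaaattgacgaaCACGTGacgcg

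For 3 further members, chosen because the motif follows the start, the site is shown with its neighbouring bases in the same orientation.
PES1, chr22:30591882-30591907, minus strand: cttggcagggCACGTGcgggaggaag
BYSL, chr6:41921517-41921542, plus strand: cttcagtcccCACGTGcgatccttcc
NOP2, chr12:6568242-6568266, minus strand: gtccggattgCACGTGgagggccgc
The other 3 motifs searched on both strands were CCGGAAGT, the NRF1 palindrome and AAGATGGC. CCGGAAGT was in 18.8% of member windows and 6.31% of all promoters. The NRF1 palindrome was in 10.4% and 1.78%, and AAGATGGC in 10.4% and 3.96%. The windows of NCL, NPM1, NOP56, DKC1, POLR1B, UBTF and POLR1A held no CACGTG. A match here is a description of letters and not of binding.

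Nearly all nucleolar factors were lower in MAPKi-treated cells, and so was their summed share. Summed over the 58 members, they took 0.752, 0.805 and 0.781% of all counts in the DMSO libraries and 0.360, 0.388 and 0.392% in the MAPKi libraries. This was 0.779% ± 0.026 against 0.380% ± 0.017 (SD, n = 3 each), with no overlap, and without NCL and NPM1, the most counted members, 0.543% ± 0.018 against 0.271% ± 0.011. For 3 libraries against 3, a two-sided exact permutation test cannot go below p = 0.1. In the share of counts by library, CTRL and Gln-depleted libraries were also apart, at 0.832% ± 0.080 and 0.637% ± 0.038. All these shares were scaled by library totals alone. On normalized counts, the members' median log2 fold change with Gln depletion was −0.16, and 3 of 58 were called lower (8.46% of all genes). In bulk RNA of this cell line, fewer cells holding an RNA and less of it per cell cannot be told apart. These are shares of counts and give no amounts per cell.

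**Figure D1:**
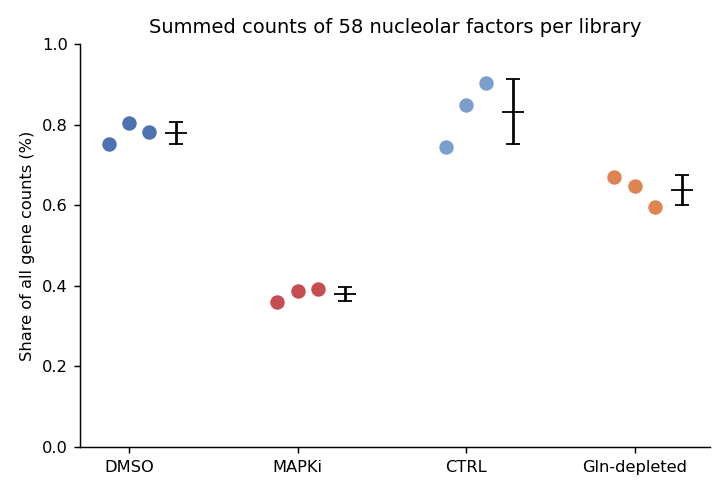
Share of all gene counts (%, vertical axis) taken by the 58 members in each of the 12 libraries (points), with the group mean and 1 SD (black bars). The MAPKi libraries sit at 0.360 to 0.392% and the DMSO libraries at 0.752 to 0.805%.

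All 58 members passed the filter of a mean normalized count of at least 10. With MAPKi, 54 of 58 were lower by the quasi-likelihood F test of edgeR, at a threshold of 0.05 after adjusting p-values over all genes by Benjamini and Hochberg's method (below, the edgeR adjusted p). This is 93.1% of the members, where 39.8% of the 12595 genes tested were lower. A single member, UBTF, was higher, where 38.4% of all genes were. Every MAPKi library lay below every DMSO library for 55 members (41.1% of all genes) and above for 1 (39.6%). In the test against a 1.5-fold change, 44 members fell beyond it (18.8% of all genes) and 0 rose beyond it (16.7%; 0 at an unadjusted p under 0.05 and 0 with DESeq2). The median log2 fold change was −1.02 over the members and −0.01 over all genes tested.

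**Figure D2:**
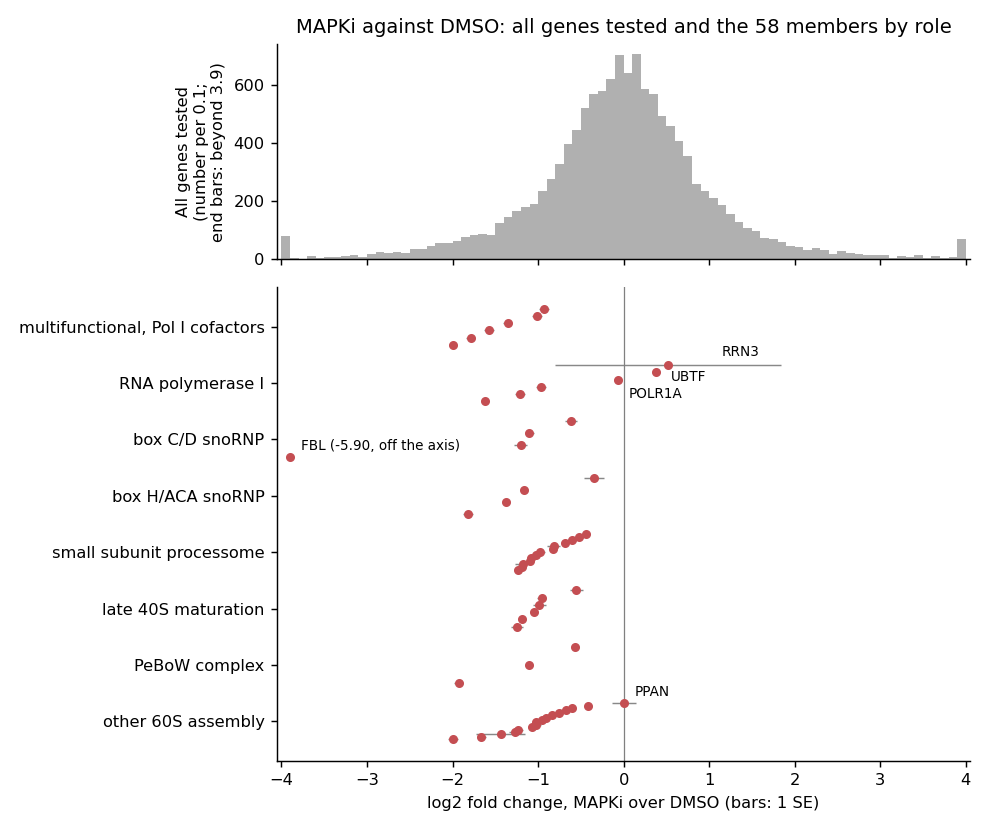
Number of all genes tested by log2 fold change of MAPKi over DMSO (upper panel, end bars collecting what lies beyond the axis) and the 58 members by role group (lower panel, points with 1 SE). The members sit mostly between −2 and −0.3, left of the centre of all genes, and UBTF, RRN3, POLR1A and PPAN sit apart from them at or near 0 or above.

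Fold sizes were graded. 32 members fell at least 2-fold, 16 fell between 1.5-fold and 2-fold, and 6 called members fell by less than 1.5-fold, namely NOP10, NOP14, IMP3, PNO1, WDR12 and FTSJ3. Treated and control libraries were tight for most of them, as the plot of each member in each library shows. The steepest falls with steady counts were those of GNL3, TCOF1, BOP1, DKC1 and NOLC1, which were 3.45-fold to 3.98-fold lower.

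**Figure D3:**
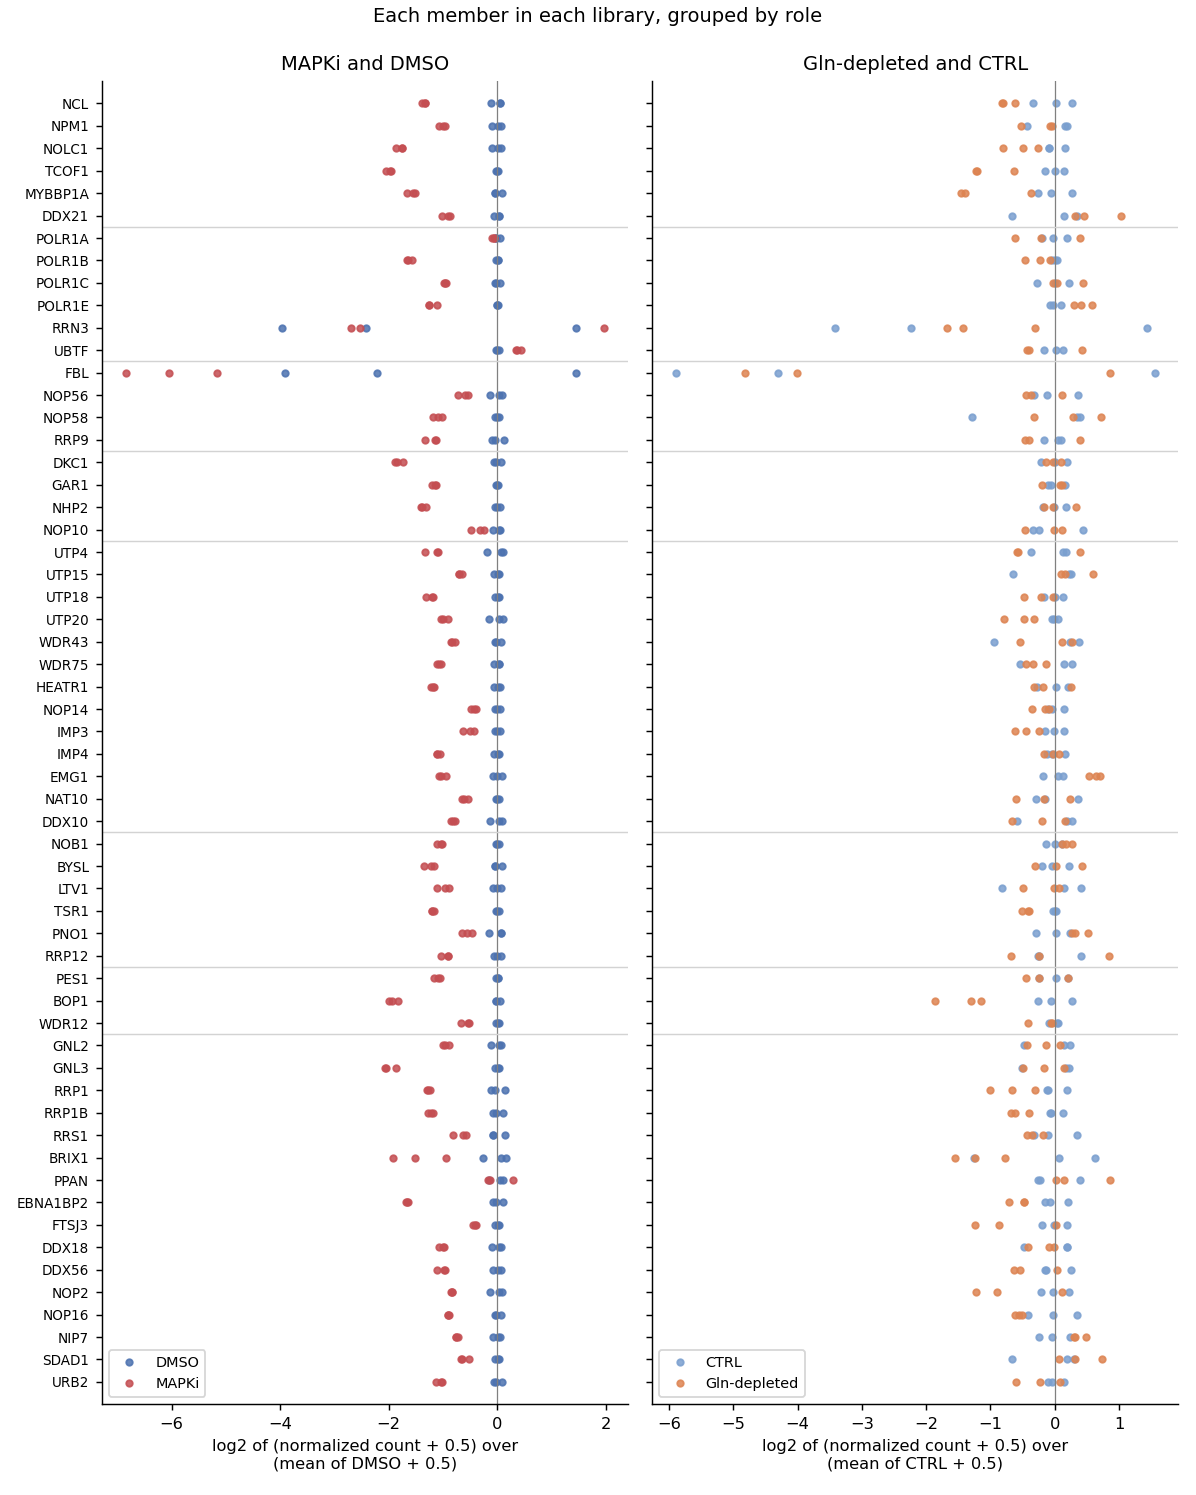
log2 of the normalized count of each member in each library relative to the mean of its control group (horizontal axis), for MAPKi with DMSO (left) and Gln-depleted with CTRL (right), members in rows by role group separated by grey lines. Left, 55 members have all MAPKi points left of all DMSO points. Right, the groups overlap for most members, and FBL and RRN3 scatter over more than 1 log2 unit in every group.

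The multifunctional nucleolar proteins and polymerase I cofactors all fell (6 of 6, each beyond 1.5-fold, median log2 fold change −1.46). NCL, nucleolin, the abundant RNA-binding protein of the nucleolus (chr2:231453531-231483641, minus strand, GRCh38), was counted at 27846, 31145 and 31169 in DMSO and 11469, 11881 and 11932 in MAPKi. Every treated library was thus under the lowest control by a wide margin, with a log2 fold change of −1.35 (SE 0.05, edgeR adjusted p = 1.64e-08). NPM1, nucleophosmin, the histone and ribosomal protein chaperone (chr5:171387116-171411810, plus strand), went from 49441, 53052 and 55589 to 24983, 26288 and 27144. This is a fall of 2.02-fold (log2 −1.01, SE 0.05, edgeR adjusted p = 1.14e-07).

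TCOF1 encodes treacle, which links RNA polymerase I transcription with early processing. It gave 9259, 9440 and 9385 in DMSO and 2263, 2411 and 2389 in MAPKi, 3.98-fold lower (log2 −1.99, SE 0.04, edgeR adjusted p = 6.99e-10). NOLC1, a partner of treacle, fell with a log2 fold change of −1.79, MYBBP1A by −1.58 and the RNA helicase DDX21 by −0.93. Levels per kb of exon were also computed, from raw counts scaled by the library total without TMM, so they are not normalized counts per kb. The divisor was the joined length of all annotated exons, 8311 bases for NPM1, 8919 for NCL and 1476 for NHP2, and the order depends on it. On this scale NPM1 had the highest level of all members in DMSO (181 ± 9.93, SD, n = 3). NCL (96.1 ± 5.96) and NHP2 (93.4 ± 2.82) followed. The last 2 of these levels differ by less than their spread.

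Among the RNA polymerase I subunits and initiation factors, only 3 of 6 were called lower, and these all exceeded 1.5-fold. POLR1B, the partner of the largest subunit in the catalytic core, dropped from 6656, 6651 and 6491 to 2084, 2117 and 2222 (log2 −1.62, SE 0.04, edgeR adjusted p = 1.56e-09). POLR1E, of the subunit pair that docks initiation factors, and POLR1C, shared with RNA polymerase III, had log2 fold changes of −1.21 and −0.96. The largest subunit behaved differently.

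POLR1A, the largest subunit, had 6509, 6900 and 6503 normalized counts in DMSO and 6365, 6382 and 6232 in MAPKi. Its MAPKi libraries were all slightly below the controls, but the log2 fold change of −0.07 (SE 0.04) did not pass the test (edgeR adjusted p = 0.17). UBTF, the upstream binding factor that keeps rRNA genes open and loads the polymerase (chr17:44205033-44221626, minus strand), had 4588, 4710 and 4512 in DMSO and 5926, 5838 and 6201 in MAPKi. It was the sole member called higher, 1.30-fold (log2 0.38, SE 0.04, edgeR adjusted p = 2.62e-05), under the 1.5-fold limit. In a fit of all 12 libraries, which share 1 spread, its adjusted p was 0.12. UBTF exons overlap those of opposite-strand genes.

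RRN3, the factor that makes the polymerase competent to start, could not be read. Its normalized counts were 9.71, 3.00 and 149 in DMSO and 7.95, 8.87 and 213 in MAPKi, and replicate 3 of each group was far above the others. The log2 fold change was 0.52 (SE 1.32, edgeR adjusted p = 0.73), and it turned to −2.68 without MAPKi replicate 3. Of 9 other genes of the polymerase I machinery, 8 were tested and all 8 were lower, from TAF1B, a subunit of the promoter selectivity factor, at −0.18 to POLR1G at −1.48 and TAF1A at −1.47.

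The 4 members that are proteins of box C/D snoRNPs, the methylation particles, were all lower, 3 of them beyond 1.5-fold. NOP58, a scaffold of the particle, fell from 2493, 2627 and 2561 to 1124, 1255 and 1204 (log2 −1.10, SE 0.05, edgeR adjusted p = 3.48e-08). NOP56, its paralogue in the particle, fell less, from 3630, 3788 and 3253 to 2455, 2351 and 2157 (log2 −0.62, SE 0.07, edgeR adjusted p = 1.83e-05). The U3-specific RRP9 had −1.21.

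FBL, fibrillarin, is the methyltransferase itself, but its row was erratic. Raw counts were 1009, 86 and 27 in DMSO and 3, 5 and 12 in MAPKi, and 4732, 84 and 29 in CTRL. The treated libraries were all below the controls and the log2 fold change was −5.90 (SE 1.45, edgeR adjusted p = 0.00425), yet control libraries differed among themselves by more than most members changed. Across alternatives the log2 fold change ranged from −6.52 to −3.07, the latter without DMSO replicate 1, and in the 12-library fit its adjusted p was 0.0757. The table has a further FBL row, which was not added, with 0, 2 and 77 raw counts in DMSO and 0 in each MAPKi library. In DMSO replicate 3 that row thus held more counts than the one used.

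Box H/ACA proteins, the pseudouridylation particles, were also lower in 4 of 4. DKC1, dyskerin, the pseudouridine synthase (chrX:154762742-154777689, plus strand), fell from 4698, 5014 and 4543 to 1290, 1429 and 1322. That is 3.53-fold (log2 −1.82, SE 0.06, edgeR adjusted p = 3.23e-09). GAR1 fell from 1825, 1797 and 1779 to 777, 824 and 817 (log2 −1.16, SE 0.05, edgeR adjusted p = 1.54e-08), and NHP2 had −1.37. NOP10, the smallest protein of the particle, changed little, with 156, 169 and 171 in DMSO and 133, 118 and 140 in MAPKi (log2 −0.34, edgeR adjusted p = 0.0238). Its call was kept in 8 of 15 alternatives. Of 10 other snoRNP genes, 9 were tested and 9 were lower, from −0.41 (SNU13, the remaining core protein of box C/D particles) to −1.47 (RUVBL1).

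All 13 small subunit processome factors were lower, 10 of them beyond 1.5-fold, with a median of −0.98 and a narrow range of −1.23 to −0.44. HEATR1, of the subcomplex that also supports rRNA transcription, went from 9506, 10202 and 9994 to 4399, 4252 and 4343 (log2 −1.19, SE 0.05, edgeR adjusted p = 1.11e-08). UTP20, a very large scaffold protein, went from 5184, 6183 and 5898 to 2810, 2884 and 3054 (log2 −0.98, SE 0.07, edgeR adjusted p = 6.4e-07). Both belong to the same particle, and their treated libraries all lay below their controls. UTP18 (−1.23), UTP4 (−1.18), IMP4 (−1.10) and WDR75 (−1.08) fell over 2-fold, while WDR43 (−0.82), DDX10 (−0.82) and UTP15 (−0.68) lost less.

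The rRNA-modifying enzymes of the processome were EMG1 and NAT10. EMG1, a methyltransferase of the small subunit rRNA (chr12:6970913-6979936, plus strand), fell from 2535, 2827 and 2663 to 1299, 1385 and 1265 (log2 −1.02, SE 0.05, edgeR adjusted p = 1e-07). NAT10, the cytidine acetyltransferase, fell from 3783, 3868 and 3750 to 2410, 2482 and 2611 (log2 −0.60, SE 0.04, edgeR adjusted p = 9.22e-07), not beyond 1.5-fold in its test. IMP3 (−0.52) and NOP14 (−0.44) were the least lowered of the 13.

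Late 40S maturation factors were lower in 6 of 6, 5 of them beyond 1.5-fold. NOB1, the endonuclease of the last 18S cut, fell from 2927, 2994 and 3037 to 1382, 1460 and 1480 (log2 −1.05, SE 0.04, edgeR adjusted p = 1.67e-08). Its partner PNO1 fell less, with −0.55. BYSL, bystin, went from 1160, 1279 and 1156 to 467, 533 and 512 (log2 −1.25, SE 0.07, edgeR adjusted p = 1.29e-07). TSR1 (−1.19), LTV1 (−0.99) and RRP12 (−0.96) lay between.

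In the PeBoW complex, which the large subunit precursor needs for its internal spacer cuts, the 3 proteins bind each other but their RNAs did not fall equally. BOP1 (chr8:144262045-144291438, minus strand) went from 4565, 4825 and 4597 to 1162, 1305 and 1207 (log2 −1.93, SE 0.05, edgeR adjusted p = 1.67e-09). PES1 went from 5787, 5975 and 5931 to 2635, 2765 and 2836 (log2 −1.10, SE 0.04, edgeR adjusted p = 1.57e-08). WDR12 went from 2823, 2896 and 2945 to 1828, 2014 and 1999 (log2 −0.57, SE 0.05, edgeR adjusted p = 2.55e-06), short of 1.5-fold. The differences between the 3 were not tested.

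Of the 16 other 60S assembly factors 15 were lower, 12 beyond 1.5-fold. GNL3, nucleostemin, a nucleolar GTPase of proliferating cells (chr3:52681156-52694497, plus strand), had 3721, 3913 and 3834 in DMSO and 916, 906 and 1053 in MAPKi. It was the largest fall among members with steady counts (log2 −1.99, SE 0.06, edgeR adjusted p = 2.92e-09). EBNA1BP2 (−1.66), BRIX1 (−1.44, at 13.9 to 60.4 normalized counts), RRP1 (−1.27), RRP1B (−1.23), URB2 (−1.07) and the helicases DDX18 and DDX56 (both −1.02) fell at least 2-fold. NOP2, a methyltransferase of the large subunit rRNA and proliferation antigen, went from 2140, 2230 and 1891 to 1160, 1172 and 1174 (log2 −0.84, SE 0.06, edgeR adjusted p = 1.08e-06).

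GNL2 (−0.95), NOP16 (−0.91), NIP7 (−0.75), RRS1 (−0.67), SDAD1 (−0.61) and FTSJ3 (−0.41) were lower by smaller amounts. PPAN, a Brix-domain protein, was the exception, with 206, 199 and 172 in DMSO and 170, 235 and 175 in MAPKi (log2 0.00, SE 0.15, edgeR adjusted p = 0.976). Its exons are shared with a read-through gene on the same strand. The values of those genes cannot be separated by counting alone.

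The rest of the pathway went the same way. Of 109 other ribosome biogenesis genes, 99 were tested and 91 were lower (91.9%, where 39.8% of all genes were). A further 2 were higher (38.4% of all genes). Beyond 1.5-fold 54 fell (18.8% of all genes), and the median log2 fold change was −0.74. LYAR (−2.44), NLE1, MPHOSPH6 (−1.92) and the exosome subunits EXOSC9 (−1.81) and EXOSC8 (−1.77) fell most. RIOK3 (0.73) and EXOSC6 (0.14) were the 2 that were higher. NOP53 (0.01), SBDS (−0.10), EXOSC1 (−0.11), UTP23 (−0.11), DDX49 (−0.10) and RRP36 (−0.03) did not pass the test.

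Features that the choice of members did not use were set beside the fold changes. Members with CACGTG in the window had a median MAPKi log2 fold change of −0.99 and those without it −1.01. EBNA1BP2 and NAT10 both hold it, at −1.66 and −0.60, and DKC1 and NOP56 both lack it in the window, at −1.82 and −0.62. The motif begins at base −237 from the start in EBNA1BP2, near the window's edge, and at base −15 in NAT10. Small nucleolar RNA genes, 28 in all, lie inside 9 members, among them GNL3 with 6 and NOP56 with 5. The median was −1.10 for these hosts and −1.02 for the other members.

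The composition of the encoded proteins was described too. In the translated canonical transcripts, aspartate and glutamate made up a median of 13.2% of residues, against 11.4% over 19088 proteins, and 47 of 58 members were above that median. Lysine made up 8.0% against 5.46%, with 53 of 58 above. The 19088 proteins include those of genes that did not pass the count filter, which all members passed. NCL led with 24.8% aspartate and glutamate and an unbroken acidic run of 38 residues, and UBTF (21 residues) and NPM1 (20) followed. Across the 58 members, which share all libraries, the MAPKi log2 fold change had a Pearson r of 0.19 and a Spearman rho of 0.09 with the acidic share, and 0.04 and −0.02 with lysine. These values include FBL and RRN3, whose counts were erratic. FBL lies far from the others, at a log2 fold change of −5.90 and an acidic share of 9.03%.

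With Gln depletion most members were not called, in a test that missed many changes of 2-fold in simulated data. 3 of 58 were lower (8.46% of 12514 genes tested were) and 1 was higher (9.48%). With the replicate number as a block, since same-numbered libraries deviated together, 15 were lower (23.8% of genes) and 6 were higher (25.1%). Both counts of lower members, 5.17% and 25.9% of the members, are near what all genes showed. Beyond 1.5-fold, 1 fell (2.1% of genes) and 0 rose (3.48%; 0 at an unadjusted p under 0.05, 0 with DESeq2), and with the block 3 fell (7.86%) and 0 rose (8.84%). The median log2 fold change was −0.16, against 0.00 over all genes. It was below 0 for 43 of 58 members (74.1%), where 49.9% of all genes were. Of 100 genes simulated with an absolute log2 change of 1, the Gln test called 29, and 5 beyond 1.5-fold. For MAPKi these numbers were 95 and 74. A missing call with Gln depletion is therefore not evidence that a member was unchanged.

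Libraries of the groups did not overlap for 13 members below (19.8% of genes) and 5 above (20.1%). BOP1 changed most, with 6335, 4365 and 5049 in CTRL and 2358, 1440 and 2118 in Gln-depleted cells. All 3 pairs were lower by like amounts (log2 −1.43, −1.60 and −1.25), and the log2 fold change was −1.41 (SE 0.25, edgeR adjusted p = 0.00904, 0.000211 with the block). TCOF1 went from 10256, 8343 and 9342 to 6009, 4042 and 3971 (log2 −0.99, SE 0.22, edgeR adjusted p = 0.0204), and NCL from 20137, 25874 and 30685 to 14625, 16691 and 14503 (log2 −0.74, SE 0.21, edgeR adjusted p = 0.0408).

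EMG1 was higher with Gln depletion, from 3722, 3009 and 3540 to 5557, 4978 and 5361, and every pair rose (log2 0.58, 0.73 and 0.60). Its log2 fold change was 0.63 (SE 0.18, edgeR adjusted p = 0.0435, 0.00283 with the block). EMG1 exons overlap those of a same-strand gene and of LPCAT3 on the opposite strand. With the block, DDX21, POLR1E, PNO1, NIP7 and SDAD1 were also higher, by 0.38 to 0.66 on the log2 scale. MYBBP1A (block −1.06), FTSJ3 (−0.69), NOP2 (−0.66), RRP1 (−0.65), RRP1B (−0.56), EBNA1BP2 (−0.55), UTP20 (−0.53), NOP16 (−0.53), NOLC1 (−0.52), TSR1 (−0.44), IMP3 (−0.43) and DDX56 (−0.37) were added to the lower ones. These calls rest on few libraries. Leaving out 1 library at a time kept BOP1 lower in all 6 fits, but TCOF1 was called only without CTRL replicate 1 (−0.92) or Gln-depleted replicate 1 (−1.22), and NCL (−0.89) and EMG1 (0.69) only without CTRL replicate 1. The number lower ran from 1 to 6, with 6 without Gln-depleted replicate 1. These fits had no replicate block, and each left a library without its same-numbered pair. Without a replicate 1 library, experimental batch 1 remained in 1 group only. In these fits the effect of depletion cannot be told apart from differences between pairs or batches.

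By role, the box C/D and box H/ACA proteins gave no called member with Gln depletion with or without the block. DKC1, for example, had 5976, 6908 and 7865 in CTRL and 6298, 7417 and 6784 in Gln-depleted libraries (log2 −0.02, SE 0.19, edgeR adjusted p = 0.958), and these groups overlapped. NPM1 had 36522, 55016 and 56062 and then 34225, 46611 and 47714 (log2 −0.20, SE 0.23, edgeR adjusted p = 0.576). Of 100 other pathway genes tested, 4 were lower and 4 higher, where 8.46% and 9.48% of all genes were. With the block 21 were lower and 22 higher, where 23.8% and 25.1% of all genes were. These counts are near or under the shares over all genes. RIOK3 (1.65) and EXOSC6 (1.59), the 2 pathway genes higher with MAPKi, were among the 4 higher ones.

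The pairs of the Gln experiment came from 2 experimental batches. In batch 1, that is replicate 1, the ratio of Gln-depleted to CTRL was below 1 for 24 members, and in batch 2 the fold change was below 0 on the log2 scale for 45. For 24 members the ratio was above 1 in batch 1 while the log2 value was below 0 in batch 2, among them NOP56 (0.44 and −0.55) and UBTF (0.39 and −0.40). Fitted alone, batch 2 gave 14 lower members (24.1%, where 17% of 12472 genes tested were) and 1 higher (17.9% of genes). A test of the difference between batches, chosen after seeing the data, called 0 of 58 members (edgeR, smallest adjusted p = 0.795), with 10 at an unadjusted p under 0.05. Shares over all genes are not given for the signs by batch or for this test. Whether the members differed between batches more than other genes therefore cannot be told. Batch 1 holds 1 library a group, so it has no spread of its own. Its CTRL library was apart from the others in several members, such as NOP58 with 1004 against 3114 and 3200.

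**Figure D4:**
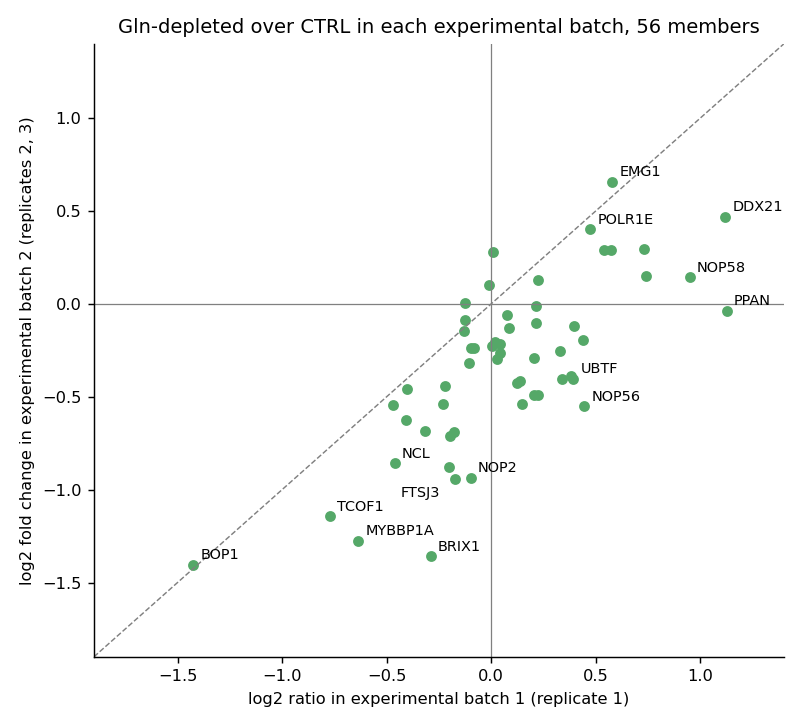
log2 ratio of Gln-depleted to CTRL in experimental batch 1 (horizontal axis, replicate 1) and log2 fold change in experimental batch 2 (vertical axis, replicates 2 and 3), 1 point a member without FBL and RRN3. Most points lie below the dashed line of equal values, and BOP1, TCOF1 and EMG1 lie near or below it on the same side of 0 in both batches.

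The 2 experiments have separate controls, and their effects were compared in 1 fit of the 12 libraries. The log2 fold change was higher with Gln depletion than with MAPKi for 33 of 58 members (20.9% of 12627 genes tested) and lower for 0 (19.6% of genes; edgeR, 0 at an unadjusted p under 0.05, 0 with DESeq2). The differences that passed ran from 0.56 (NCL) to 1.79 (GNL3), and DKC1 (1.75) and EMG1 (1.60) followed GNL3. GNL3 had 2562, 4138 and 4256 in CTRL and 2597, 4025 and 3266 in Gln-depleted libraries, so its Gln groups overlapped. In the same fit 25 members did not pass, among them BOP1 (0.46, SE 0.26, edgeR adjusted p = 0.185), MYBBP1A, NOP2, FTSJ3 and POLR1A. With the replicate block 45 were higher (32.1% of genes) and 1, UBTF, was lower (29% of genes), with a UBTF difference between the experiments of −0.57 (edgeR adjusted p = 0.0392), and without Gln-depleted replicate 1 both UBTF and FTSJ3 were lower. Among the members that passed as higher only with the block were FBL, UTP20, NAT10, BOP1 and WDR12.

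Across members, the log2 fold changes of both experiments had r = 0.27 and rho = 0.29 (n = 58), and r = 0.41 and rho = 0.32 without FBL and RRN3 (n = 56). These are values across genes of the same libraries, given as a description. BOP1 and TCOF1 had large negative values in both, while GNL3, at −1.99 with MAPKi, had −0.15 with Gln depletion. EMG1 and DDX21 fell with MAPKi and were higher with Gln depletion, the latter with the block.

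**Figure D5:**
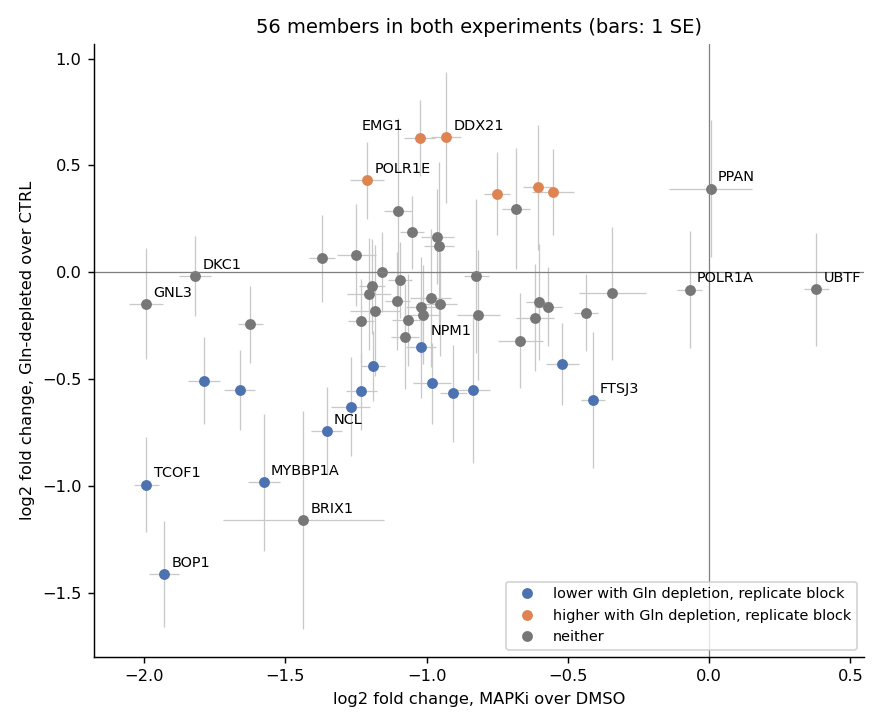
log2 fold change with MAPKi (horizontal axis) and with Gln depletion (vertical axis) of 56 members, with 1 SE. Blue and orange mark members called lower and higher with Gln depletion in the fit with the replicate block. All points but UBTF and PPAN lie left of 0, while along the vertical axis they spread on both sides of 0.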

How the data were processed

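RNA of A375 cells was sequenced in 12 libraries, 3 in each of the groups MAPKi, DMSO, Gln-depleted and CTRL, and groups were taken from the sample labels. The deposited values are raw counts per gene that the authors made with fastp 0.20.1, HISAT2 2.2.1 and HTSeq 0.13.5 on GRCh38.p13. The strand setting of the counting is not given in the sources used here. Exons of 22 members overlap those of an opposite-strand gene and 7 those of a same-strand gene, so their values are uncertain. The members BOP1, FBL, RRN3 and UTP4 have further rows, which were not added. Replicates are not stated to come from separate cultures, so p-values measure only the spread between these libraries.

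Of 44659 genes, 36524 matched a RefSeq symbol and 513 an older one, and the test took those coding for protein whose normalized counts averaged 10 or more. Counts were scaled by TMM and fitted within each experiment in edgeR 4.0.16 (R 4.3.3) with glmQLFit and glmQLFTest, and with glmTreat against a 1.5-fold change. Benjamini-Hochberg adjustment ran over all genes tested, with a threshold of 0.05. Effects of the experiments were compared in a fit of all 12 libraries. Normalized counts are counts divided by the TMM-scaled library size, on the scale of the experiment's mean library. Standard errors are the log2 fold change divided by the square root of the F statistic. Scripts were tested on simulated data. Alternatives were DESeq2 1.42.0 and its size factors, all genes, other count filters, a GC correction, a replicate block, a fit of all 12 libraries, each replicate left out, experimental batch 2 alone and a threshold of 0.01.

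In the Gln experiment same-numbered libraries deviated together (correlations of deviations from the group means 0.71, 0.58 and 0.44) and by the labels an experimental batch separates replicate 1 from the other 2. The numbers were therefore taken to pair the libraries.

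Positions are from GENCODE v44 (GRCh38) and start windows from RefSeq. Members, lists and tests were chosen with earlier results of these data known. The members given with all their values are core members of each role group (NCL, NPM1, POLR1A, POLR1B, RRN3, UBTF, FBL, NOP56, NOP58, DKC1, GAR1, HEATR1, UTP20, NAT10, NOB1, BYSL, PES1, BOP1, WDR12, GNL3 and NOP2), the 5 with the largest called change and no overlap in each direction and experiment, and the 3 with the largest called difference between experiments. TAF1A, LYAR, RIOK3 and the few others named outside this rule were chosen after their values were seen.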

Additional observations from a re-analysis of the deposited data

How the results depend on the processing

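With MAPKi, the counts of lower members (51 to 54) and their median (−1.06 to −0.98) moved little, and 0 members were higher in the fit of 12 libraries. MAPKi libraries sharing a number deviated together weakly (correlations 0.16, 0.05 and 0.02), so numbers are names there, and the replicate block gave 54 lower and 1 higher. With Gln depletion, the 3 lower members became 6 with DESeq2, 13 with 12 libraries, 15 with the block, 10 with GC correction, 19 with both, 14 in experimental batch 2 and 1 at a threshold of 0.01. The 1 higher became 0 without a filter, 3 with 12 libraries, 6 with the block, 2 with GC correction, 3 with both and 0 at a threshold of 0.01. The 1 beyond 1.5-fold became 0 with DESeq2, 2 with 12 libraries, 3 with the block, 2 with block and GC, 3 in batch 2 and 0 at a threshold of 0.01. Over all genes the share lower also rose, from 8.46% to 23.8% with the block and 17% in batch 2. The share higher went from 9.48% to 25.1% and 17.9%. Shares over all genes under the other settings are not given here, so those counts cannot be read as a trait of the members. Members lower with Gln depletion than with MAPKi became 1 with the block. With MAPKi the block changed no call of a named member. The cause of these changes was not tested. Among the core members, uncalled values that turned sign were FBL at 0.049 with block and GC and 0.53 in batch 2, and BYSL at −0.0090 in batch 2. The GAR1 log2 fold change with Gln depletion turned to −0.0411 (12 libraries), −0.010 (GC), −0.00403 (both) and −0.10 (batch 2). Leaving out each replicate gave 1 to 6 lower, 0 to 1 higher and 0 to 3 beyond 1.5-fold with Gln depletion, a median of −0.34 to −0.10, and 0 to 2 lower than with MAPKi. So left out, RRN3 spanned −2.68 to 3.61 with MAPKi. With Gln depletion the spans were POLR1A −0.40 to 0.10, RRN3 −1.57 to 1.77, UBTF −0.42 to 0.066, FBL −4.37 to 4.25, NOP56 −0.41 to 0.0063, NOP58 −0.087 to 0.53, DKC1 −0.11 to 0.085, GAR1 −0.0533 to 0.087, HEATR1 −0.25 to 0.047, NAT10 −0.37 to 0.084 and BYSL −0.13 to 0.21. Differences between experiments spanned −0.39 to 0.14 for POLR1A, −4.63 to 1.63 for RRN3 and −0.28 to 0.47 for NOP2. The fits with 1 library left out had no replicate block, so its same-numbered partner stayed unpaired. In the Gln experiment these spans and counts therefore mix the effect of depletion with differences between pairs and batches. Low counts limit FBL, RRN3, BRIX1 and NOP10.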

Other observations

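Non-coding hosts, whose introns carry small nucleolar RNAs of the box C/D or box H/ACA class, were measured in the same libraries. The tests above took protein-coding genes only. Fold changes and p-values of these hosts are from edgeR fits of genes of every type (15900 tested with Gln depletion, 15975 with MAPKi). With Gln depletion GAS5 went from 1520, 1209 and 964 normalized counts to 4410, 4878 and 4604 (log2 1.92, SE 0.22, edgeR adjusted p = 0.0027). SNHG1 (2.40), SNHG12 (2.53), SNHG5 (1.79), SNHG7 (1.34) and SNHG8 (1.20) were also higher, and SNHG6 (0.74), SNHG15 (0.84) and SNHG16 (0.11) did not pass. With MAPKi, 7 of the same 9 were lower, from SNHG15 at −1.74 and SNHG12 at −0.89 to GAS5 at −0.27, while SNHG16 was higher (0.28) and SNHG7 did not pass (0.05). Of the protein-coding genes tested, 9.48% were higher with Gln depletion and 39.8% lower with MAPKi. Of the protein-coding hosts among the members, NCL was called lower with Gln depletion (−0.74, edgeR adjusted p = 0.0408). TSR1 (−0.44, edgeR adjusted p = 0.0959) was called lower with the replicate block (edgeR adjusted p = 0.0122). The other hosts, such as NOP56 (−0.21) and NOP58 (0.28), passed neither with nor without the block.

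Amino acid response genes were also measured in the Gln experiment. All 9 tested had a positive log2 fold change (median 2.63), and 8 passed, where 9.48% of all genes were higher. Among the 8 were TRIB3, a pseudokinase (3.18), and CHAC1, a glutathione-degrading enzyme (3.32). With MAPKi 5 of the 9 were lower and 4 higher. Of 12 targets of the MAPK pathway, the 11 tested all fell with MAPKi (median −3.65), where 39.8% of all genes were lower. With Gln depletion all 12 had a positive log2 fold change (median 0.74), and 4 were called higher.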
